A study of Mus musculus with 45 samples.

Results

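Atp6v0c, Rps2 and Hmga1 on mouse chromosome 17, and 6 near-identical copies of these or of other chromosome 17 genes elsewhere in the genome, are the 9 genes described here, out of 54532 genes in the deposited table. They were chosen by their TPM values in these same libraries, which in earlier work separated hippocampi of mice with the Csf1r-Cre transgene from those without it. The copies are Atp6v0c-ps2 on chromosome 6, Rps2-ps10 on chromosome 18, Rps2-ps13 on chromosome X, Hmga1b on chromosome 11, Gm9825 on chromosome 6 and Gm14292 on chromosome 2. All 9 passed the filter on low values that left 18659 genes for testing. Rps2-ps13 did so only through Csf1r-Cre libraries. Because the choice used the difference between Csf1r-Cre and other libraries, that difference is given as a description, with no test. Only 5xFAD, age and the interplay of these with Csf1r-Cre are tested.

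A processed pseudogene is a copy of a messenger RNA that was reverse transcribed and inserted elsewhere in the genome, so it lacks the introns of its parent and often keeps nearly the same sequence. Reads from such a copy and from its parent can be hard to tell apart, and a read is assigned by the few bases at which they differ. Among the parents, Atp6v0c encodes the proteolipid c subunit of the membrane ring of the vacuolar proton pump (V-ATPase), which acidifies lysosomes and synaptic vesicles. Rps2 encodes a protein of the small ribosomal subunit, and Hmga1 an architectural chromatin protein that binds AT-rich DNA through AT-hooks.

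RNA was sequenced from the hippocampus, microdissected from the brain, in 45 libraries. All mice carried floxed Apoe on both alleles, in a C57BL/6 strain per the labels. At 12 months there were 5 libraries with 5xFAD and Csf1r-Cre, 7 with 5xFAD, 7 with Csf1r-Cre and 3 controls with the floxed alleles alone. At 4 months the same groups held 4, 5, 6 and 8 libraries. 5xFAD is a transgenic model of amyloid pathology, with transgenes under the neuronal Thy1 promoter. Csf1r-Cre, hemizygous where present, expresses Cre recombinase under the promoter of Csf1r, a gene of microglia and other myeloid cells, and was used to delete Apoe from microglia. The strain entry of the 12-month 5xFAD libraries names Csf1r-Cre and their titles do not. The titles were followed. Whether each numbered library is a different mouse is not stated, and the p-values rest on the spread between libraries.

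Values are TPM, reads per gene length scaled to each library's total, so levels can be compared between genes. Reads recovered from the TPM came to 14159017 to 20986662 in genes per library. Apoe, the deleted gene, had 1292 to 5434 TPM in the 22 Csf1r-Cre libraries (median 3253) and 1945 to 4895 TPM in the 23 others (median 3353). Astrocytes express Apoe too. In such bulk samples, fewer cells of a type and less RNA per cell cannot be told apart. The 7 hippocampal marker genes summed to 64.2 to 565 TPM in Csf1r-Cre libraries and 128 to 533 TPM in the others. Summed markers of the neighbouring striatum ranged from 87.4 to 2785 TPM and from 91.5 to 5327 TPM. None of the 36 marker genes of hippocampus, microglia, choroid plexus, striatum, thalamus and blood passed the threshold for Csf1r-Cre. All 6 striatal markers were nevertheless below 0 in that comparison (median -0.70), while all 5 blood genes lay between 0.41 and 0.53 and all 5 thalamic markers above 0 (median 0.32). Blood genes summed to 183 to 2999 TPM with Csf1r-Cre and 173 to 1215 TPM without it. Of the other markers, 5 of 7 hippocampal, 5 of 7 microglial and 5 of 6 choroid plexus genes were above 0, with medians of 0.28, 0.07 and 0.12. The part of these markers in the results was not tested. Replicate 2 of the 12-month Csf1r-Cre group and replicate 2 of the 12-month controls stood apart over all genes.

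The copies differ from their parents at very few bases. Atp6v0c-ps2, which covers the coding sequence of Atp6v0c, matched it at 464 of 465 bases. The matching stretch was 928 of 934 bases for Rps2-ps10 with Rps2, 875 of 882 for Rps2-ps13 with Rps2, and 1599 of 1602 for Hmga1b with Hmga1. Hmga1b is annotated as protein coding, and its 3 differences from Hmga1 all fell in the untranslated part. By sequence, the 2 predicted genes are copies of other chromosome 17 genes. Gm9825 matched Rnps1, which encodes an RNA-binding protein of the exon junction complex, at 838 of 843 bases, and the gene table of RefSeq names it as a pseudogene of Rnps1. Gm14292 matched Wtap, whose protein is a subunit of the m6A RNA methyltransferase complex, at 453 of 456 bases. No annotation used here names that parent. How reads that fit several places were counted is not stated, so the levels of parent and copy are uncertain. Of all stretches of 150 bases, the read length, 64.9% of those in Atp6v0c-ps2 and 70.6% of those in Hmga1b held no difference from the parent, against 33.2% for Rps2-ps10, 32.2% for Gm14292, 20.9% for Rps2-ps13 and 19.3% for Gm9825.

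The following stretches show the bases by which a read can be assigned, with the parent first and each differing base in capitals. They are read 5′ to 3′ from GENCODE M21 transcripts on GRCm38 (mm10). Differences are named with the parent's base first, then the position counted from 1 at the copy's 5′ end, then the copy's base. The only difference of Atp6v0c-ps2 is T111C, in coding exon 2 of Atp6v0c (chr17:24164821-24164881, minus strand), with the copy at chr6:37806166-37806226 on the plus strand.
Atp6v0c: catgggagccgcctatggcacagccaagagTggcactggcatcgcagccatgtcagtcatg
Atp6v0c-ps2: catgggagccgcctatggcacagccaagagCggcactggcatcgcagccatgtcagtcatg
For Rps2-ps13, C444T and C453A lie in coding exon 3 of Rps2 (chr17:24721007-24721067, plus strand), with the copy at chrX:52899001-52899061 on the plus strand.
Rps2: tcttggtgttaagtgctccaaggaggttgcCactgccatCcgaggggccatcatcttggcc
Rps2-ps13: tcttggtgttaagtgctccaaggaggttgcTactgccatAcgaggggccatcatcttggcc
For Hmga1b, A784G lies in the untranslated part of exon 5 of Hmga1 (chr17:27562842-27562870, plus strand), with the copy at chr11:120763563-120763591 on the plus strand.
Hmga1: ccttaaggggccccAgccccatctcactc
Hmga1b: ccttaaggggccccGgccccatctcactc
For Gm9825, T489C and T510C lie in coding exon 6 of Rnps1 (chr17:24422158-24422218, plus strand), with the copy at chr6:7982865-7982925 on the minus strand.
Rnps1: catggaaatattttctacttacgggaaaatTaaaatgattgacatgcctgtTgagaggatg
Gm9825: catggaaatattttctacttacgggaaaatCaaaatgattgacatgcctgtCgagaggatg
For Gm14292, A249G and C273T lie in coding exon 5 of Wtap. The stretch of Wtap spans exons 5 and 6 on the minus strand (chr17:12975469-12980876, intron included), while the copy has it without a break at chr2:179177643-179177703 on the plus strand.
Wtap: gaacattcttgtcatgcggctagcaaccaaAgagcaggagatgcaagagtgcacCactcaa
Gm14292: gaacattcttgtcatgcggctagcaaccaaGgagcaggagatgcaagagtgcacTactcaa

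Of the parents, Atp6v0c stood lower with Csf1r-Cre in every library. At 12 months it had 160, 185, 181, 193 and 197 TPM with 5xFAD and Csf1r-Cre, against 330 to 414 TPM (median 365) with 5xFAD. It had 111 to 212 TPM (median 190) with Csf1r-Cre, against 295, 463 and 376 TPM in controls of that age. At 4 months it had 210, 220, 175 and 168 TPM with 5xFAD and Csf1r-Cre, against 338, 430, 333, 344 and 447 TPM with 5xFAD. The remaining groups of that age had 168 to 226 TPM (median 189) with Csf1r-Cre, against 306 to 572 TPM (median 378) in controls. The highest Csf1r-Cre library, at 226 TPM, lay below the lowest library without Csf1r-Cre, at 295 TPM. Averaged over the 4 backgrounds, the difference was -1.02 ± 0.073 (SE) on the log2(TPM + 0.5) scale, and it lay between -1.08 and -0.97 in each background.

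Atp6v0c-ps2 moved the other way. It had 401, 423, 411, 462 and 497 TPM in the 12-month libraries with 5xFAD and Csf1r-Cre, against 12.1 to 59.9 TPM (median 14.8) with 5xFAD. At the same age it had 275 to 544 TPM (median 423) with Csf1r-Cre, against 11.6, 17.1 and 9.24 TPM in controls. At 4 months it had 475, 517, 427 and 415 TPM with 5xFAD and Csf1r-Cre, against 14.6, 12.6, 11.1, 19.0 and 27.6 TPM with 5xFAD. The copy's lowest Csf1r-Cre value, 275 TPM, was above its highest value without Csf1r-Cre, 59.9 TPM in 12-month 5xFAD replicate 6. The difference was 4.85 ± 0.13 (SE) on the log2 scale. Per base, the copy thus ranked above its parent in the Csf1r-Cre libraries, at a mean of 442 ± 58.2 TPM for the copy and 186 ± 24.96 TPM for the parent (SD, n = 22).

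**Figure D1:**
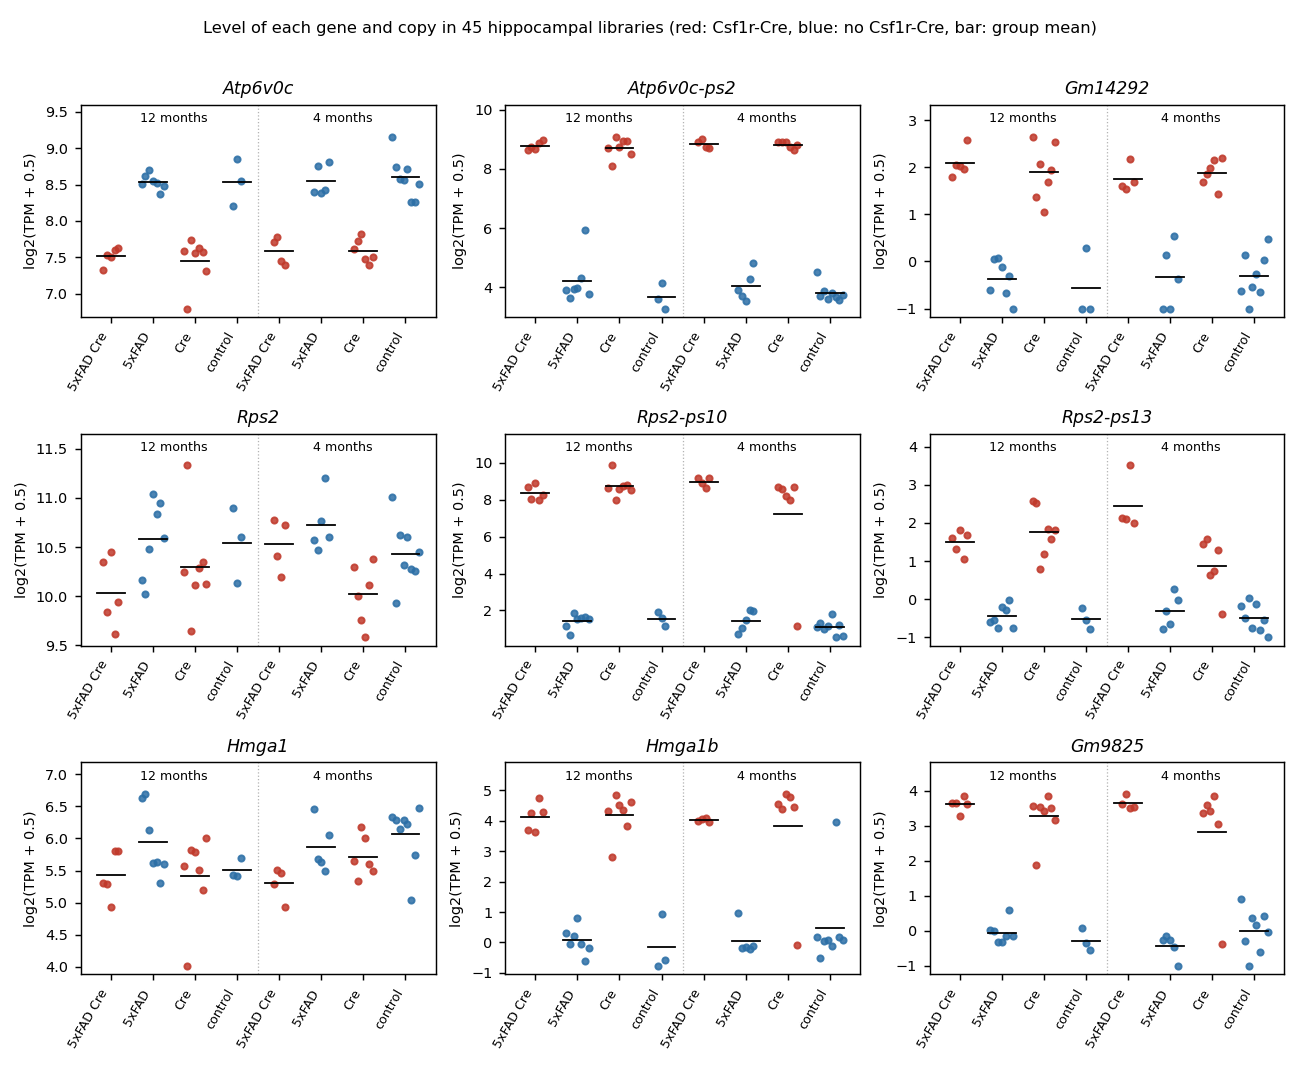
Level of each of the 9 genes as log2(TPM + 0.5) in every library, by group, with 12 months on the left and 4 months on the right of each panel, Csf1r-Cre libraries in red and the others in blue, and the group mean as a bar. Atp6v0c, Atp6v0c-ps2 and Gm14292 show no overlap between red and blue, while replicate 6 of the 4-month Csf1r-Cre group sits with the blue points for Rps2-ps10, Rps2-ps13, Hmga1b and Gm9825.

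Of the copies of Rps2, Rps2-ps10 was by far the more abundant. In 12-month libraries it had 416, 266, 476, 247 and 307 TPM with 5xFAD and Csf1r-Cre, against 1.07 to 3.18 TPM (median 2.38) with 5xFAD. With Csf1r-Cre at that age it had 253 to 931 TPM (median 388), against 3.27, 2.47 and 1.72 TPM in controls. It had 576, 472, 394 and 582 TPM in the 4-month libraries with 5xFAD and Csf1r-Cre, against 1.14, 1.61, 2.30, 3.57 and 3.43 TPM with 5xFAD. In 4-month Csf1r-Cre libraries it had 1.76 to 409 TPM (median 338), against 0.971 to 2.98 TPM (median 1.67) in controls, the lowest being replicate 6. The next lowest Csf1r-Cre library of any group had 247 TPM, above all libraries without Csf1r-Cre. Rps2-ps13 reached 0.262 to 10.97 TPM (median 2.52) in the 22 Csf1r-Cre libraries and 0 to 0.705 TPM (median 0.187) in the 23 others. The log2 differences were 6.94 ± 0.35 for Rps2-ps10 and 2.08 ± 0.16 for Rps2-ps13 (SE).

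Rps2 itself overlapped between the sets, with 766 to 2582 TPM (median 1193) with Csf1r-Cre and 977 to 2363 TPM (median 1539) without it, a log2 difference of -0.35 ± 0.11 (SE). The highest Csf1r-Cre value came from 12-month replicate 2, which stands apart over all genes. Hmga1 overlapped too, with 15.7 to 71.9 TPM (median 44.9) with Csf1r-Cre and 32.3 to 103 TPM (median 53.1) without it, a difference of -0.38 ± 0.14 (SE).

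Hmga1b had 12.4, 18.6, 12.0, 26.5 and 19.1 TPM in 12-month libraries with 5xFAD and Csf1r-Cre, against 0.161 to 1.26 TPM (median 0.473) with 5xFAD. With 5xFAD and Csf1r-Cre at 4 months it had 15.3, 16.0, 16.5 and 15.0 TPM, against 1.44, 0.386, 0.394, 0.356 and 0.427 TPM with 5xFAD. Without 5xFAD at that age the ranges crossed: 0.442 to 28.9 TPM (median 22.1) with Csf1r-Cre, against 0.207 to 15.0 TPM (median 0.565) in controls. The low Csf1r-Cre value was replicate 6 of its group and the high control value replicate 6 of its own, and without these Csf1r-Cre libraries began at 6.51 TPM and the others ended at 1.44 TPM. The log2 difference was 3.92 ± 0.31 (SE).

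The copies of Rnps1 and Wtap had lower median TPM than Atp6v0c-ps2, Rps2-ps10 and Hmga1b, and higher than Rps2-ps13, both with and without Csf1r-Cre. Gm9825 had 0.274 to 14.6 TPM (median 11.2) in Csf1r-Cre libraries and 0 to 1.38 TPM (median 0.396) in the others, a log2 difference of 3.53 ± 0.22 (SE). Its lowest Csf1r-Cre value was again 4-month replicate 6. Gm14292 had 1.55 to 5.78 TPM (median 3.36) with Csf1r-Cre and 0 to 0.955 TPM (median 0.272) without, a difference of 2.30 ± 0.15 (SE). It was listed at 0 in 6 libraries, all without Csf1r-Cre, and its values in the 45 libraries rested on at most 42 reads each. Rnps1 itself had 17.9 to 50.02 TPM with Csf1r-Cre and 43.3 to 78.5 TPM without, and Wtap 15.05 to 42.8 TPM and 22.4 to 46.4 TPM.

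Over all libraries, 3 of the 18659 genes tested (0.0161%) had Csf1r-Cre values that did not overlap with the others, and these were Atp6v0c, Atp6v0c-ps2 and Gm14292. Without replicate 6 of the 4-month Csf1r-Cre and replicate 6 of the 4-month control group, 7 genes did so (0.0375%), namely these 3 with Rps2-ps10, Rps2-ps13, Hmga1b and Gm9825. All 7 are among the 9 genes, which were chosen for that difference. With limma, 26 genes (0.139%) passed an adjusted p of 0.05 for Csf1r-Cre over the 4 backgrounds. This count includes genes of the 9, for which it is no test since they were chosen for that difference. Of the 19 genes outside the 9, 11 lie on chromosome 17, among them Rnps1, and 7 are annotated as pseudogenes. The shares of all tested genes on chromosome 17 or annotated as pseudogenes were not counted. These pseudogenes include Gm10420, Gm12366, Gm6139 and Gm6311, which share sequence with Rps2-ps10 and so are not independent of the 9. Gm10420 and Rnf151, a gene near Rps2, passed the filter on low values only through Csf1r-Cre libraries. Whether others of the 19 did so was not counted.

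Recovered reads gave the share of each family's reads that were assigned to the copies. For Atp6v0c this share was 52.0% ± 1.34 in the Csf1r-Cre libraries and 1.98% ± 1.30 in the others (SD, n = 22 and 23). It was 25.3% ± 5.72 and 0.165% ± 0.054 for Rps2 with both copies, 23.5% ± 5.57 and 1.84% ± 5.42 for Hmga1, 10.8% ± 2.79 and 0.370% ± 0.242 for Rnps1, and 3.51% ± 1.04 and 0.283% ± 0.268 for Wtap. Single libraries, described below, widen the SDs of Rps2, Hmga1 and Rnps1 with Csf1r-Cre and of Hmga1 without it. Medians were 26.3% and 0.1655% for Rps2, 24.2% and 0.590% for Hmga1, and 11.25% and 0.326% for Rnps1. Without 4-month replicate 6, Csf1r-Cre libraries lay at 23.8% to 28.85% for Rps2 and 19.95% to 28.1% for Hmga1. Within the Csf1r-Cre set the Atp6v0c share was narrow, from 49.3% to 53.9%, with means of 52.2% and 52.2% with and without 5xFAD at 12 months and 52.1% and 51.6% at 4 months. All 7 of the 12-month 5xFAD libraries, whose labels conflict on Csf1r-Cre, lay with the libraries without it, at 1.38% to 7.67% for Atp6v0c and 0.129% to 0.244% for Rps2. The genes were chosen for separating the sets, so this is no independent check of the labels.

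The parents lie on chromosome 17 in the order Wtap, Atp6v0c, Rnps1, Rps2 and Hmga1, starting at 12.97, 24.16, 24.41, 24.72 and 27.56 Mb. The steps between starts are 11.2 Mb, 0.251 Mb, 0.303 Mb and 2.84 Mb. Along this order, 4-month Csf1r-Cre replicate 6 changed sides once. At Wtap 4.52% of its reads were on the copy (95% Wilson interval 3.06% to 6.64%) and at Atp6v0c 52.8% (51.4% to 54.2%), both within the range of the other 21 Csf1r-Cre libraries. At Rnps1 the share was 0.270% (0.0919% to 0.791%), at Rps2 0.161% (0.108% to 0.239%) and at Hmga1 0.768% (0.329% to 1.79%), each within the range of libraries without Csf1r-Cre. Replicate 6 of the 4-month controls did the reverse at the far end. Its shares were 0.207% at Wtap, 1.82% at Atp6v0c, 0.164% at Rnps1 and 0.0895% at Rps2, within the range without Csf1r-Cre, and 26.6% (23.6% to 29.8%) at Hmga1, within the Csf1r-Cre range of 19.95% to 28.1%. Intervals cover counting error only. Among the other 43 libraries the ranges of both sets did not overlap at any of the 5 parents. The copies were chosen for separating these sets, and the libraries left out here were picked after seeing the data.

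**Figure D2:**
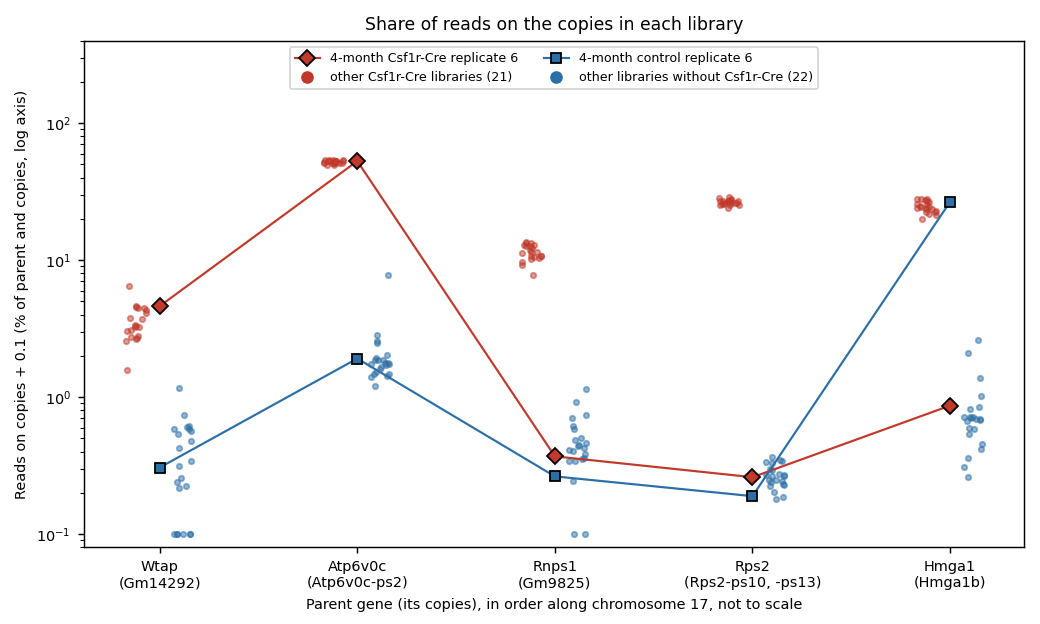
Share of the reads of each parent and its copies that were on the copies, plus 0.1 percentage points, on a log axis, 1 point per library, with the parents in their order along chromosome 17. The line of 4-month Csf1r-Cre replicate 6 leaves the red points between Atp6v0c and Rnps1, and the line of 4-month control replicate 6 joins them between Rps2 and Hmga1.

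Parent and copy were then added, to see whether the parent's lower level was matched by the copy's higher one. Adding the deposited TPM, the Atp6v0c sum was 628 ± 81.6 TPM with Csf1r-Cre and 398 ± 62.6 TPM without it (SD), 0.67 ± 0.070 higher on the log2 scale (SE). TPM divide reads by length, and the same read is worth more on the copy (465 bases) than on Atp6v0c (1018 bases, the mean of its transcripts). Weighted so that a read counts the same on both, the sums were 388 ± 50.4 TPM with Csf1r-Cre and 389 ± 61.7 TPM without it, a log2 difference of 0.01 ± 0.070 (SE). Weighting by the gene length listed in the table, 3384 bases for Atp6v0c, gave -0.62, so the direction of this sum changed with the length used. The TPM of Atp6v0c gave whole reads with 1018 bases in all 45 libraries. Weighting by the listed length therefore does not count a read the same on parent and copy. The weighting by transcript length was chosen after seeing the data.

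The Rps2 sum was 1628 ± 552 TPM with Csf1r-Cre and 1548 ± 365 TPM without it, a difference of 0.05 ± 0.11 (SE), and 0.07 when weighted by transcript length. For Hmga1 the sums were 64.4 ± 18.5 and 63.9 ± 19.5 TPM, a difference of 0.06 ± 0.14, and -0.02 when so weighted. The Rnps1 sum was 51.1 ± 8.84 TPM with Csf1r-Cre and 56.7 ± 8.47 TPM without, a difference of -0.12 ± 0.083, and -0.28 when weighted. The length of Rnps1 behind this weight and behind its share of reads, 1778 bases, was not its mean transcript length but the smallest that gave whole reads in every library. With Gm14292 as its copy, the Wtap sum was 35.0 ± 7.65 and 36.6 ± 6.88 TPM, a difference of -0.08 ± 0.098, and -0.17 when weighted.

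**Figure D3:**
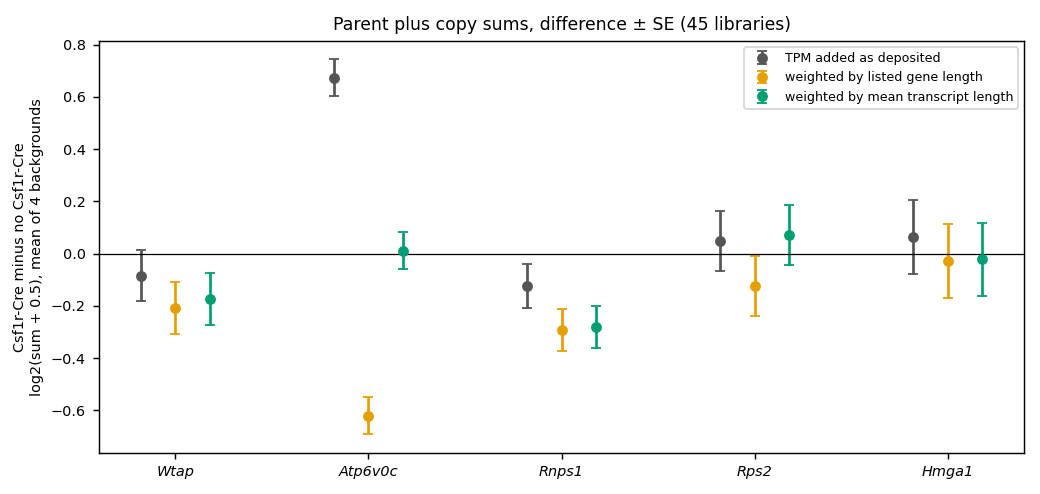
Difference of the parent plus copy sums between Csf1r-Cre and other libraries on log2(sum + 0.5), as the mean of 4 backgrounds ± SE, for TPM added as deposited, weighted by the listed gene length and weighted by the mean transcript length. The Atp6v0c sum lies at 0.67, -0.62 and 0.01 under the 3 weightings.

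These sums were compared with 5xFAD and with age inside matched groups, which the choice of genes did not use. None of 32 exact two-sided permutation tests (4 sums in 8 pairs of groups, Benjamini-Hochberg adjusted over all 32) passed 0.05, and 2 had an unadjusted p under 0.05. The Rps2 sum at 4 months was 2006 ± 362 TPM with 5xFAD and Csf1r-Cre (SD, n = 4) and 1352 ± 237 TPM with Csf1r-Cre (n = 6), with an exact p of 0.0143 (adjusted 0.229). The Hmga1 sum in controls was 45.8 ± 4.87 TPM at 12 months (n = 3) and 71.5 ± 14.03 TPM at 4 months (n = 8), with an exact p of 0.0121 (adjusted 0.229). Atp6v0c sums differed little, with log2 differences of -0.11 to 0.06 over the 8 pairs.

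By gene, none of the 9 passed limma's adjusted p of 0.05 for 5xFAD at 4 months, averaged over libraries with and without Csf1r-Cre, where 14 genes (0.075%) did so overall. Rps2-ps13 came nearest, at 0.87 ± 0.22 (SE, log2) with an adjusted p of 0.15. Its values were 3.86, 3.82, 10.97 and 3.49 TPM with 5xFAD and Csf1r-Cre, against 0.262 to 2.46 TPM (median 1.54) with Csf1r-Cre. With 5xFAD and no Csf1r-Cre they were 0.0794, 0.306, 0.130, 0.705 and 0.493 TPM, against 0 to 0.518 TPM (median 0.191) in controls. Rps2-ps13 passed the filter on low values only through Csf1r-Cre libraries, and these values without Csf1r-Cre lie near the floor. Without 12-month Csf1r-Cre replicate 2 its adjusted p was 0.048, and over single libraries left out it ranged from 0.048 to 0.46. Rps2 differed by 0.40 ± 0.15 (adjusted p = 0.33). Rps2-ps10 differed by 1.06 ± 0.48 (adjusted p = 0.33), and by 0.46 without 4-month Csf1r-Cre replicate 6. The lowest difference was -0.30 ± 0.19 for Hmga1. The median over all genes tested was -0.16.

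At 12 months, 1088 genes (5.83%) passed for 5xFAD and none of the 9 did. Differences ran from -0.24 ± 0.50 for Rps2-ps10 to 0.30 ± 0.19 for Atp6v0c-ps2 (adjusted p = 0.40), with a median over all genes of 0.18. Between 12 and 4 months, averaged over genotypes, 884 genes (4.74%) passed and none of the 9 did. Here values ran from -0.16 ± 0.14 for Hmga1 (adjusted p = 0.69) to 0.34 ± 0.35 for Rps2-ps10, which fell to 0.04 without 4-month Csf1r-Cre replicate 6.

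The Csf1r-Cre difference was also tested for a change with 5xFAD and with age. No gene of the 18659 passed in either case (0%), although 1732 and 298 genes had an unadjusted p under 0.05 in limma. For 5xFAD the members' values ran from -0.35 ± 0.26 for Atp6v0c-ps2 to 0.68 ± 0.44 for Gm9825 (adjusted p = 0.54), with Rps2-ps13 at 0.52 ± 0.31 (adjusted p = 0.53). For age they ran from -0.09 ± 0.26 for Atp6v0c-ps2 to 0.54 ± 0.62 for Hmga1b, with Gm14292 at 0.32 ± 0.30 (adjusted p = 1.00 for each of these). An adjusted p above 0.05 does not show that the values are equal.

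**Figure D4:**
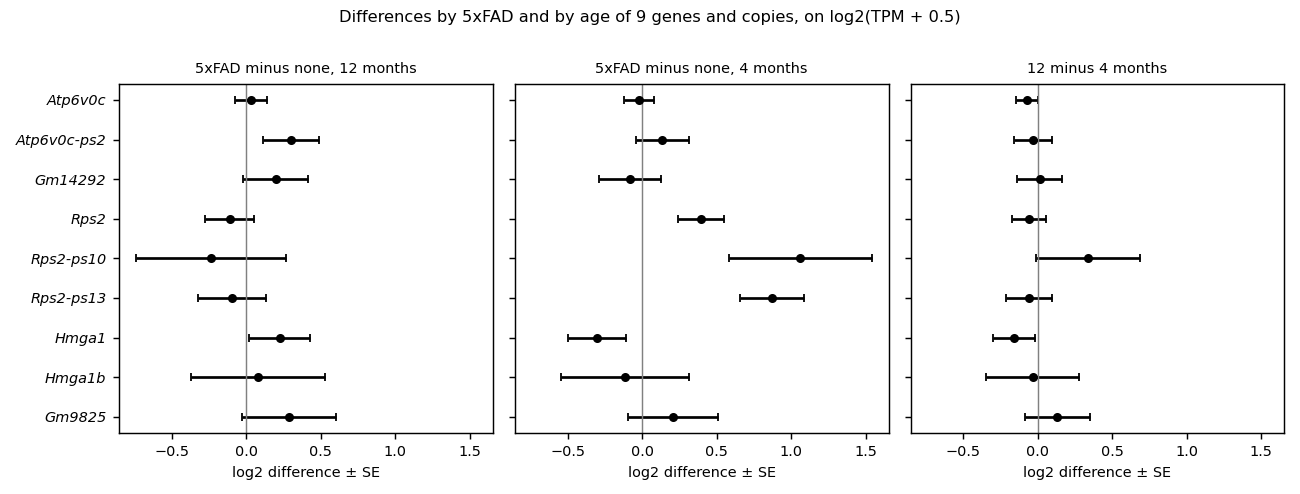
Log2 differences ± SE of the 9 genes for 5xFAD against none at 12 months and at 4 months and for 12 against 4 months, each averaged over the matched groups. No difference passed the threshold, and the 3 Rps2 rows lie highest for 5xFAD at 4 months.

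The genes that work with the parents were set beside them. The parents were chosen for their Csf1r-Cre difference, so their distance from these genes in that comparison is no test. Of 25 other V-ATPase genes, 22 were tested and none passed for Csf1r-Cre, with a median log2 difference of -0.09 against -0.04 over all genes. Atp6v0c stood at -1.02, and its sum with the copy at 0.67, -0.62 or 0.01, depending on the weighting. For 5xFAD at 12 months 2 of the 22 rose, where 5.83% of all genes passed, the higher being Atp6v0d2, a d subunit, by 2.12 ± 0.16 (limma adjusted p = 2.0e-12). All 33 other small ribosomal subunit genes were tested and none passed for Csf1r-Cre. Their median was 0.15, with 32 of 33 above 0, while Rps2 stood at -0.35. At 4 months none of the 33 passed for 5xFAD, with a median of 0.35 and 33 of 33 above 0, beside 0.40 for Rps2. Of 9 other HMG chromatin protein genes 7 were tested, none passed for Csf1r-Cre, and their median was -0.02.

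More rows of the table share sequence with the parents. Of these, 9 further rows carry names of Atp6v0c or Rps2 pseudogenes, of which 3 were at 0 in every library and 2 passed the filter, with at most 1.73 TPM. Of 13 rows, found after values were seen, that share over 50% of the 30-base words of Rps2-ps10, 9 were tested. Gm10420, Gm12366, Gm6139 and Gm6311 were higher with Csf1r-Cre, by 0.46, 0.71, 0.60 and 0.92 on the log2 scale, each past the limma threshold that 0.139% of genes passed. Their means were 0.278 to 1.03 TPM with Csf1r-Cre and 0.0489 to 0.395 TPM without it. These 4 share sequence with a gene chosen for this difference, so their calls are no independent support. Gm10420 also passed the filter on low values only through Csf1r-Cre libraries. The other 5 tested, including Gm45855 at 0.533 TPM with Csf1r-Cre and 0.916 TPM without it, did not pass.

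Genes around the parents were compared with the 0.139% of all genes that passed for Csf1r-Cre. Within 250000 bases of the start of Atp6v0c, 12 genes were tested and 1 passed, D330041H03Rik at 0.87 (log2), with Pdpk1 next at -0.31. Rnps1, which passed at -0.44, starts 250809 bases away and so falls just outside this window. Near Rps2, 30 were tested and 2 passed, Rnf151 at 0.92 and Spsb3 at -0.42, with Npw at 0.44 next in size to Rnf151. Rnf151 had a mean of 0.529 TPM with Csf1r-Cre and 0.00988 TPM without it. It passed the filter on low values only through Csf1r-Cre libraries, so its call is no support. Near Hmga1 none of 8 passed and differences ran from -0.16 for D17Wsu92e to 0.17 for Spdef.

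Across the 45 libraries, which share the split by Csf1r-Cre, the genes outside the 9 whose log2 levels were most like that of Atp6v0c were Rnps1, Gtpbp2 and Spsb3, all on chromosome 17 (Pearson correlation 0.84, 0.78 and 0.72), and least like it Prss41, Gm6311 and Gm11361 (-0.82, -0.79 and -0.78). Rps2 was most like Rps18, Rnf5 and Jpt1 (0.87, 0.81 and 0.79) and least like Luzp1, Smad9 and Zfhx4 (-0.83, -0.81 and -0.80). Hmga1 was most like Tmem130, Nap1l5 and Gprasp2 (0.88, 0.88 and 0.86) and least like Selenow, Mettl23 and Dynll1 (-0.77, -0.69 and -0.68). These correlations are descriptions, and libraries also share depth and dissection.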

How the data were processed

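The authors deposited TPM per gene and library, with mm10 coordinates and gene lengths. The submitters' processing notes list STAR, featureCounts, edgeR, limma and mm10. Their settings, strand use and the handling of reads that fit several places are not given in the sources. TPM of the 9 genes become whole reads once multiplied by length in units of 1000 bases and divided by the value of 1 read. This held for 396 of 396 values above 0, within 0.02. The length is the mean transcript length in GENCODE M21, and 1 read is worth 0.0573 to 0.0902 TPM on 1000 bases. For Rnps1, whose mean transcript length did not give whole reads, the smallest length that did was used. No count test was run.

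Tests used log2(TPM + 0.5), which understates changes of low genes, for 18659 genes with at least 0.5 TPM in at least 3 libraries. limma 3.58.1 (R 4.3.3) fitted 1 mean per group over 45 libraries, with a trend, two-sided, Benjamini-Hochberg adjusted over all genes at 0.05, and was tested on simulated data. Sums used exact permutation tests that enumerated every arrangement of the libraries, with the code checked against SciPy 1.17.1 on simulated numbers. Intervals are 95% Wilson intervals. Copies were aligned to the transcripts with Biopython 1.88. The genes named are the 9 members, copies by name or sequence, genes near or most like the parents, and the gene lists. The members and lists were chosen with earlier results of these data known, and genes sharing sequence with Rps2-ps10 were picked after values were seen.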

Additional observations from a re-analysis of the deposited data

Results flagged for a closer look

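Of 98 sets of values (9 genes and 5 shares of reads on copies, in 7 groups of 4 to 8 libraries), 20 held a library whose gap to the nearest of the others passed Dixon's 95% limit, or 20.4%, where chance flags about 1 in 20 sets. The sets are not independent, since parent, copy and share use the same reads.

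Replicate 6 of the 4-month Csf1r-Cre group was low for Hmga1b at 0.442 TPM (next 20.1) and in the share of reads on copies at 0.161% for Rps2 (next 25.9%), 0.768% for Hmga1 (next 23.8%) and 0.270% for Rnps1 (next 9.20%). Replicate 6 of the 4-month controls was high for Hmga1b at 15.0 TPM (next 0.630) and in the Hmga1 share at 26.6% (next 0.914%).

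Replicate 6 of the 12-month 5xFAD group was high for Atp6v0c-ps2 at 59.9 TPM (next 19.6), with 7.67% of reads on the copy (next 2.39%), and for Gm9825 at 1.00 TPM (next 0.517), with a Rnps1 share of 1.05% (next 0.405%). Its shares for Rps2, Hmga1 and Wtap were 0.166%, 0.320% and 0.243%, not apart from its group.

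Replicate 2 of the 12-month Csf1r-Cre group was high for Rps2 at 2582 TPM (next 1307) and for Rps2-ps10 at 931 TPM (next 449). Replicate 1 of the 4-month controls was high for Atp6v0c at 572 TPM (next 428) and Atp6v0c-ps2 at 22.4 TPM (next 14.3). Replicate 3 of the 4-month 5xFAD Csf1r-Cre group was high for Rps2-ps13 at 10.97 TPM (next 3.86), and replicate 5 of that genotype at 12 months for Gm14292 at 5.47 TPM (next 3.65). Replicate 1 of the 4-month 5xFAD group was high for Hmga1b at 1.44 TPM (next 0.427) and in the Hmga1 share at 1.27% (next 0.619%). In the 12-month 5xFAD group, replicate 3 was high in the Rps2 share at 0.244% (next 0.176%) and replicate 4 in the Hmga1 share at 1.99% (next 0.746%).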

How the results depend on the processing

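Alternatives were pseudocounts of 0.1 and 1, no filter, median-of-ratios scaling, other weights of the sums, the replicate number as a block, and libraries left out. Under each of these the 9 genes and the sums gave no call in the tested comparisons (5xFAD, age and the change of the Csf1r-Cre difference with either), except Rps2-ps13 for 5xFAD at 4 months (1 gene of the 9, adjusted p = 0.048) without the 2 libraries that stand apart over all genes or without 12-month Csf1r-Cre replicate 2, so that calls ranged from 0 to 1. The Atp6v0c sum reversed to -0.62 with listed gene lengths and moved to 0.012 with mean transcript lengths, and was 0.63 to 0.71 with single libraries left out. Of the 9 genes, which were chosen for that difference, 7 had no overlap without replicate 6 of the 4-month Csf1r-Cre and control groups. Those libraries were picked after seeing the data. With single libraries left out, 3 to 6 of the 9 had no overlap (6 without that Csf1r-Cre library). Over all 18659 genes tested, 7 (0.0375%) had none without both replicate 6 libraries, and single libraries left out were not counted. All genes called for 5xFAD at 4 months were 28 with median-of-ratios scaling and 87 without the 2 libraries, and 6 to 70 with single libraries left out (70 without 12-month Csf1r-Cre replicate 2, 6 without 4-month 5xFAD Csf1r-Cre replicate 1 or 4). For age they were 1986 without the 2 libraries and 630 to 2194 with single libraries left out, and for the change of the Csf1r-Cre difference with 5xFAD 0 to 1 (1 without 12-month control replicate 1). For the change with age, Hmga1b reversed to -0.095 without both replicate 6 libraries, and Atp6v0c-ps2 to 0.073 without the 2 libraries and, over single libraries left out, -0.19 to 0.05. The cause was not tested. Pseudocounts moved Csf1r-Cre differences of low copies, to 3.06 and 1.57 for Rps2-ps13 and 3.49 and 1.73 for Gm14292 with 0.1 and 1, and to 4.43 for Gm9825 with 0.1.

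Whether libraries with the same number in different groups are paired was not tested. Correlations of their deviations had a median of 0.05 over 129 pairs, with 56 above 0.1. For different numbers in different groups the median was -0.009 over 747 pairs, with 251 above 0.1. With the replicate block, Rps2-ps13 for 5xFAD at 4 months was 0.77 (adjusted p = 0.32), and none of the 9 genes was called in the 5 tested comparisons.

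Low reads limit Gm14292, Gm9825 and Rps2-ps13, and near-identical stretches limit how surely any read is placed on parent or copy.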
